A study of Homo sapiens with 8 samples.

Results

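The 10 genes described here encode the core subunits of the transcription factor AP-1 and neighbouring immediate early factors: JUN, JUNB, JUND, FOS, FOSB, FOSL1, FOSL2, ATF3, EGR1 and IER2. They were listed by symbol for their known roles, with earlier results of these data in view, and each was represented by the probe set that carries its symbol alone. All 10 had exactly 1 such probe set among the 18404 genes measured. The arrays came from HepG2, an established human liver tumour line that keeps many hepatocyte functions. Cultures labelled Senescent (n = 4) had been exposed to 0.5 mM hydrogen peroxide (H2O2) for 60 minutes, washed, and returned to culture. Cultures labelled Normal (n = 4), called untreated below, had received culture medium alone. Both groups were the same line in the same serum-containing medium, with no genetic change named, and 5 days passed before senescence was tested. The sources used here give no separate time for taking RNA, and the design text calls the 4 cultures of a condition biological replicates.

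AP-1 is a dimer of basic leucine zipper (bZIP) proteins. JUN proteins can pair with each other or with FOS proteins, whereas FOS proteins need a partner from another branch, and ATF3 pairs with JUN proteins or with itself. Several of these genes are immediate early genes, which are transcribed soon after a growth signal or stress without new protein synthesis. In the liver JUN and FOS are known for their induction during regeneration and after injury, and in senescent cells AP-1 is known for its place at enhancers of secreted factors.

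AP-1, related bZIP dimers and serum response factor (SRF) are known to act through short DNA elements. Of the 9 members with a region to search, 5 held a match, and 4 of these are shown. The share of all genes with a match to any of the elements was not counted. RefSeq windows (GRCh38.p14) of 250 bases before to 50 bases after an annotated start matched 9 of the 10 members by symbol, ATF3 with 2 windows. FOSL1 had none. The 250 bases before the start are printed 5′ to 3′ on the gene's own strand for the members called higher whose printed bases held a match, with matches in capitals. The JUN region lies at chr1:58784048-58784297 on the minus strand, JUND at chr19:18281623-18281872 on the minus strand, ATF3 at chr1:212565157-212565406 on the plus strand and EGR1 at chr5:138465229-138465478 on the plus strand.
JUN: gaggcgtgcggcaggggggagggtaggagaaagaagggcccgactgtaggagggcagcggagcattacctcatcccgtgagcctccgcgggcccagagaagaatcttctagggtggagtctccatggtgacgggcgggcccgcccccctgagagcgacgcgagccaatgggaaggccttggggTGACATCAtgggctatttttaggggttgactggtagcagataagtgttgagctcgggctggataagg
JUND: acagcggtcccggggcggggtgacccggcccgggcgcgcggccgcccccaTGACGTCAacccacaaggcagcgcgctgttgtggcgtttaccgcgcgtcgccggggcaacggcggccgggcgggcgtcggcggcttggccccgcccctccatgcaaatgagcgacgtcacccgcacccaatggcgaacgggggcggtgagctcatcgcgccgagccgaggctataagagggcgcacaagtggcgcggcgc
ATF3: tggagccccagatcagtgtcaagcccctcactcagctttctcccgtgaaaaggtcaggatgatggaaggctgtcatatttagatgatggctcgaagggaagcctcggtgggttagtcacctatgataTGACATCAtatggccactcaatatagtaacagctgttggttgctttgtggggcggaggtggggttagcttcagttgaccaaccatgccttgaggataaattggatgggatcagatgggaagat
EGR1: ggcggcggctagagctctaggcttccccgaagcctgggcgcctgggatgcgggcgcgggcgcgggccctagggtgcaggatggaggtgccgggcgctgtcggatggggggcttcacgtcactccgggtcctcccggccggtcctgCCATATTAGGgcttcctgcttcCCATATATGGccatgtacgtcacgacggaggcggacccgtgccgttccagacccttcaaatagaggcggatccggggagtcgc

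Each window was searched on both strands for the TPA response element TGANTCA, the cAMP response element TGACGTCA, the variant TGACATCA and the CArG box, the SRF element; none of these contains another. JUN held TGACATCA, its first base 67 bases before the start. The same 8 letters stood 123 bases before the start in 1 of the 2 ATF3 windows. Among all 35116 windows of this length 2.61% held TGACATCA. JUND held TGACGTCA 200 bases before its start, as did 1.85% of all windows. EGR1 held a pair of CArG boxes, CCATATTAGG at 105 and CCATATATGG at 83 bases before the start, against 1.29% of windows with any. FOSL2 held TGACTCA 5 bases after its start, and TGANTCA occurred in 7.71% of windows. JUNB, FOS, FOSB and IER2 held none of these letters in the windows searched. A match describes the sequence and is not a measured binding site.

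**Figure D1:**
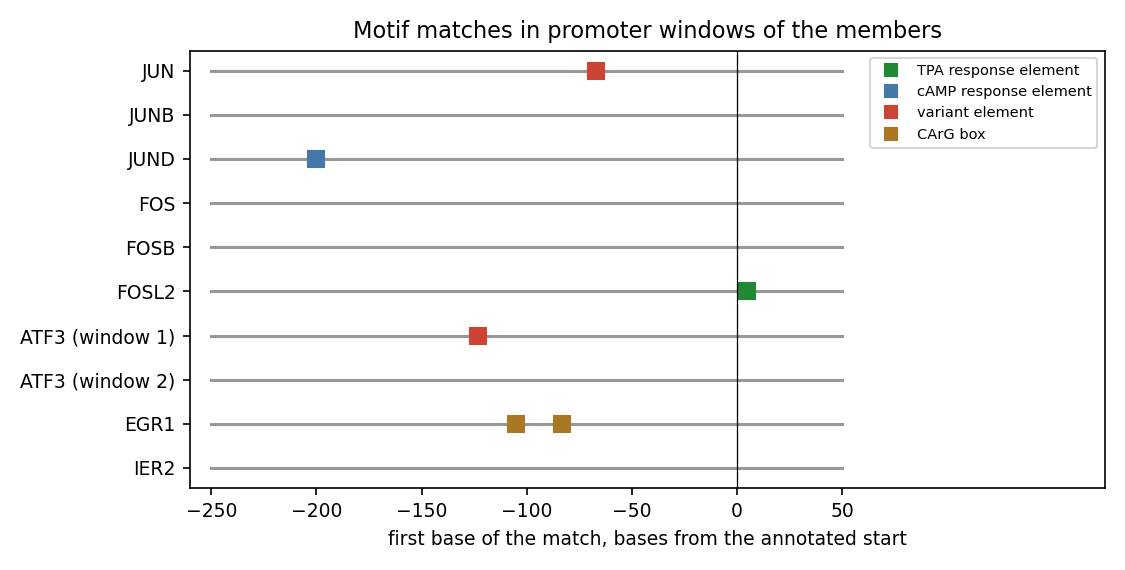
Motif matches in the promoter windows of the 9 members with a window, by the distance of the match's first base from the annotated start (x axis, bases), with 1 line for each window. JUN and 1 ATF3 window share the variant element, EGR1 has 2 CArG boxes, and 4 members have no match.

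Cells exposed to H2O2 had more JUN, EGR1, JUNB, FOSL1, JUND and ATF3 transcript than untreated cells. JUN was 2.63-fold and EGR1 1.94-fold higher, and the other 4 were 1.17-fold to 1.39-fold higher. FOSL2, IER2, FOSB and FOS did not pass the test. All values are log2 expression values, each difference is the H2O2 mean less the untreated mean ± its standard error, and a gene is called at a Benjamini-Hochberg adjusted p under 0.05 in limma, adjusted over all 18404 genes. By this rule 6 of 10 members were higher, beside 19.2% of all genes. Lower calls numbered 0 of 10 in limma (0 at an unadjusted p under 0.05, and 0 by the exact permutation test), beside 14.8% of all genes. The same 6 members had groups that did not overlap, with H2O2 above, as had 18.9% of all genes. The members' median difference was 0.29 against -0.022 over all genes. When a call also required a log2 difference of at least 0.5, JUN and EGR1 remained, 2 of 10 members, beside 7.22% of all genes called higher and 4.83% called lower by this rule. In these whole-culture samples a change in the number of cells that carry a transcript and a change in the amount per cell cannot be told apart.

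**Figure D2:**
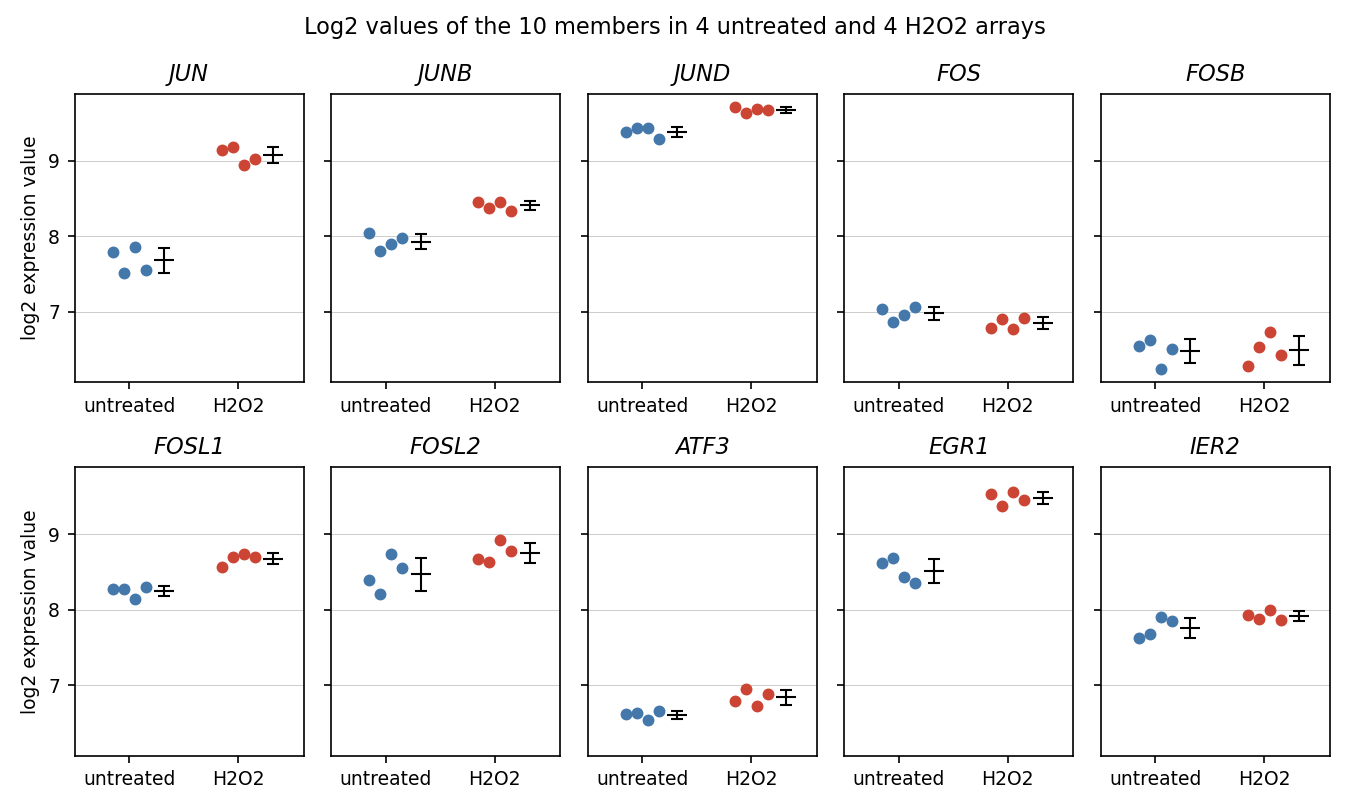
Log2 expression value (y axis) of each member in 4 untreated (blue) and 4 H2O2 (red) arrays, replicates 1 to 4 from left to right in each group; black bars are mean and SD. JUN, EGR1, JUNB, FOSL1, JUND and ATF3 have every H2O2 array above every untreated array, and FOS, FOSB, FOSL2 and IER2 overlap. Heights of different genes are not comparable.

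The JUN branch comprises JUN, the strongest activator of the 3, JUNB, which often restrains JUN, and JUND, the member that quiescent cells commonly express. JUN stood at 7.79, 7.51, 7.86 and 7.56 in untreated replicates 1 to 4 and at 9.15, 9.19, 8.94 and 9.03 in H2O2 replicates 1 to 4. The lowest treated array lay 1.08 above the highest untreated array. JUN's difference of 1.40 ± 0.090 (95% interval 1.2 to 1.59, limma adjusted p = 6.01e-08) exceeded that of 99.1% of genes.

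JUNB read 8.04, 7.80, 7.90 and 7.98 in untreated arrays and 8.46, 8.38, 8.45 and 8.34 after H2O2. Every treated array was above every untreated one, by a gap of 0.30 at the closest. Its difference was 0.48 ± 0.071 (limma adjusted p = 0.000118). JUND gave 9.38, 9.43, 9.43 and 9.29 untreated and 9.72, 9.63, 9.69 and 9.67 treated. Its replicates were tight (SD 0.068 and 0.038), so that a difference of only 0.29 ± 0.064 passed (limma adjusted p = 0.00257). All 3 JUN genes thus rose.

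In the FOS branch FOSL1 alone was called. FOSL1, which encodes FRA-1, a FOS relative without the strong activation domain of FOS, measured 8.27, 8.28, 8.15 and 8.30 in untreated replicates and 8.57, 8.70, 8.74 and 8.70 in H2O2 replicates. The groups were separate, and the difference was 0.43 ± 0.068 (limma adjusted p = 0.000204). FOSL2, which encodes the related FRA-2, ranged more widely, at 8.40, 8.21, 8.74 and 8.55 untreated against 8.68, 8.63, 8.92 and 8.78 treated. Untreated replicate 3 lay above H2O2 replicates 1 and 2. The difference of 0.28 ± 0.11 (95% interval 0.05 to 0.50) missed the threshold at an adjusted p of 0.0569 in limma. Without untreated replicate 3 it was 0.37 and passed (adjusted p = 0.0122), and it also passed without H2O2 replicate 2 at 0.32 (adjusted p = 0.0454). It passed as well when dim genes were left out of the fit (adjusted p = 0.0373) and with trend and robust moderation (adjusted p = 0.0394). Over all alternatives its p ran from 0.0122 to 0.171. The gap in log2 difference between JUND and FOSL2 was 0.02 ± 0.14 (adjusted p = 0.914, exact permutation). Between FOSL1 and FOSL2 it was 0.15 ± 0.15 (adjusted p = 0.462, exact permutation), so FOSL2 was not told apart from either.

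FOS, the prototype of the branch and a classic serum-induced gene, read 7.03, 6.87, 6.96 and 7.06 in untreated arrays and 6.79, 6.9, 6.77 and 6.92 in treated ones. It was the only member with a negative difference, -0.13 ± 0.070 (95% interval -0.28 to 0.02, limma adjusted p = 0.163), and H2O2 replicates 2 and 4 overlapped the untreated range. FOSB stood at 6.54, 6.62, 6.24 and 6.51 untreated and 6.28, 6.53, 6.73 and 6.43 treated, with the groups fully mixed. Its difference was 0.02 ± 0.10 (95% interval -0.20 to 0.24). FOSB lay below the array's own median on all 8 arrays and FOS above it on 5, and whether these levels lie above background was not tested. Earlier times after the exposure were not analysed here.

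ATF3, a stress-induced bZIP factor that often represses, had 6.62, 6.63, 6.54 and 6.66 in untreated arrays and 6.79, 6.95, 6.72 and 6.88 in treated ones. The groups were separated by 0.05, and the difference was 0.22 ± 0.071 (limma adjusted p = 0.0249). The call was lost without untreated replicate 1 (0.23, adjusted p = 0.0554), untreated replicate 3 (0.20, adjusted p = 0.0534), H2O2 replicate 2 (0.18, adjusted p = 0.085) or H2O2 replicate 4 (0.21, adjusted p = 0.0727). Over all alternatives p ran from 0.00925 to 0.085. ATF3 exceeded the array's own median on 1 of 8 arrays.

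EGR1, a zinc finger factor outside the bZIP family and a standard readout of SRF activity, was at 8.62, 8.69, 8.43 and 8.35 in untreated arrays. After H2O2 it was at 9.53, 9.38, 9.56 and 9.45. The closest arrays of the groups were 0.69 apart, and the difference of 0.95 ± 0.084 (95% interval 0.77 to 1.13, limma adjusted p = 1.10e-06) exceeded that of 97.9% of genes. IER2, a small nuclear protein induced with the immediate early genes, measured 7.63, 7.68, 7.90 and 7.85 untreated and 7.93, 7.88, 8.0 and 7.86 treated. Its groups overlapped between untreated replicate 3 and H2O2 replicates 2 and 4. The difference was 0.15 ± 0.076 (95% interval -0.01 to 0.32, limma adjusted p = 0.145).

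**Figure D3:**
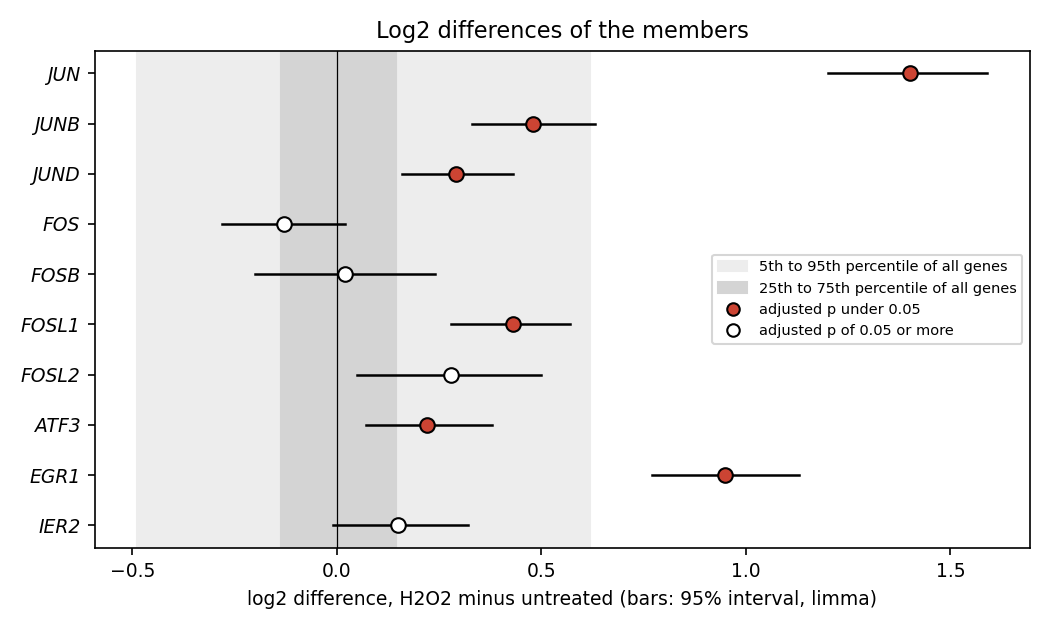
Log2 difference, H2O2 minus untreated (x axis), of each member with its 95% interval in limma; filled points passed at an adjusted p under 0.05 and grey bands show the spread of all 18404 genes. JUN (1.40) and EGR1 (0.95) lie beyond the 95th percentile of all genes, 0.619, and the intervals of FOS, FOSB and IER2 span 0.

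The size of the change differed among the members. For each of the 45 pairs the gap between 2 members' log2 differences was tested within arrays by an exact two-sided permutation test over the 8 arrays, whose smallest p is 0.0286, and adjusted over the 45 pairs. In 26 pairs the groups did not overlap and the adjusted p reached 0.0495, the smallest value here. All 26 stood at the smallest possible p of 0.0286, so they share this adjusted value and passed together, just under 0.05. Whether any of them passed depended on how many pairs reached that p. The pairs also share members and are not independent. JUN exceeded 8 of the other 9 members, from JUNB by 0.92 ± 0.10 to FOS by 1.53 ± 0.10. Against EGR1 its gap of 0.45 ± 0.15 did not pass (adjusted p = 0.0857, exact permutation). EGR1 exceeded the remaining 8, from JUNB by 0.47 ± 0.11 to FOS by 1.09 ± 0.13. JUNB and FOSL1 each exceeded ATF3, IER2, FOSB and FOS, and differed from each other by 0.05 ± 0.082 (adjusted p = 0.598, exact permutation). JUND and ATF3 each exceeded FOS alone, by 0.43 ± 0.089 and 0.36 ± 0.050. Among FOSL2, IER2, FOSB and FOS no pair passed.

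**Figure D4:**
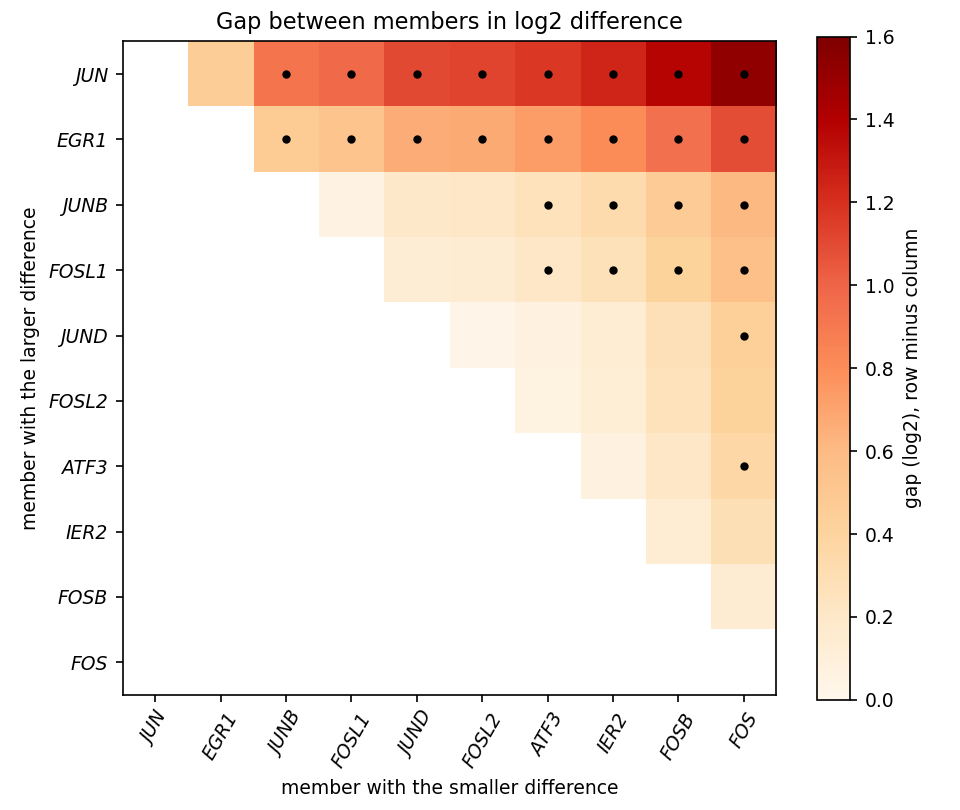
Gap in log2 difference between each pair of members (colour, row minus column), members ordered by their difference; dots mark pairs at an adjusted p under 0.05 in the exact permutation test. The dots fill the rows of JUN and EGR1, except for the pair of JUN and EGR1 itself (0.45).

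Genes with profiles most like JUN over the 8 arrays were found by the root mean square distance of values centred on each gene's mean. The nearest were the antisense RNA ARHGAP5-AS1 (distance 0.0883), CABYR, a calcium-binding protein first known from sperm (0.10), and NOS3, the endothelial nitric oxide synthase (0.104). Each was called higher, by 1.33 ± 0.069, 1.46 ± 0.078 and 1.36 ± 0.067. Untreated CABYR lay below the array median on all 4 arrays. With 2 groups this distance mainly ranks genes by a similar group difference.

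Among other immediate early genes, 10 of 32 measured were higher and 7 lower (31.2% and 21.9%, beside 19.2% and 14.8% of all genes), with a median of 0.048. PLK2, a polo-like kinase, rose most, from 6.29, 6.4, 6.34 and 6.29 to 8.43, 8.60, 8.22 and 8.56, a difference of 2.13 ± 0.085 (limma adjusted p = 5.13e-10), from an untreated level below the array median. Its relative PLK3 rose by 1.5 ± 0.073 and KLF6, a zinc finger factor, by 1.07 ± 0.072. CCN2, a matricellular growth factor, fell most, from 12.02, 11.85, 12.01 and 11.89 to 10.73, 10.84, 10.77 and 10.70, or by 1.18 ± 0.068 on the log2 scale (limma adjusted p = 1.77e-08). SGK1, a serum- and glucocorticoid-regulated kinase, fell by 0.92 ± 0.074, and NFIL3, a bZIP repressor, by 0.69 ± 0.077. The following genes were chosen after their values were seen. CCN1, the closest relative of CCN2 in the list, rose by 0.99 ± 0.067. EGR3, a relative of EGR1, gave 0.10 ± 0.075 and was below the array median on all 8 arrays. NAB1, a corepressor of EGR1, fell by 0.44 ± 0.099, and NAB2, its relative and itself an EGR1 target, gave -0.02 ± 0.069 (95% interval -0.17 to 0.13).

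Other bZIP genes, possible partners or competitors of AP-1, were called higher in 4 and lower in 3 of 22 cases (18.2% and 13.6%), with a median of -0.025. These shares are near those of all genes, 19.2% higher and 14.8% lower. ATF7, of the ATF2 branch that pairs with JUN, rose by 0.43 ± 0.081, from a mean of 8.20 to 8.63. ATF5, a stress factor, rose by 0.34 ± 0.072. BATF, an AP-1 partner best known from lymphocytes, rose by 0.25 ± 0.072 and exceeded the array's own median on 3 of 8 arrays. Its call was lost without untreated replicate 1 (0.21, limma adjusted p = 0.0568, range over alternatives 0.00915 to 0.0568). ATF4, the effector of the integrated stress response, fell by 0.46 ± 0.071, at 10.73, 10.76, 10.67 and 10.62 untreated and 10.27, 10.35, 10.19 and 10.11 treated (limma adjusted p = 0.000155). CEBPG, an ATF4 partner, fell by 0.41 ± 0.068. MAFF, a small MAF protein, fell by 0.27 ± 0.075, a call lost without H2O2 replicate 4 (-0.21, adjusted p = 0.054; range over alternatives 0.00317 to 0.054). None of the 7 had a difference of 0.5 or more. NFIL3, a bZIP gene counted above among other immediate early genes, is not in this list and fell by 0.69 ± 0.077. ATF2 itself (-0.06 ± 0.061) and JDP2, a repressor of AP-1 (0.03 ± 0.078), both chosen after their values were seen, did not pass.

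**Figure D5:**
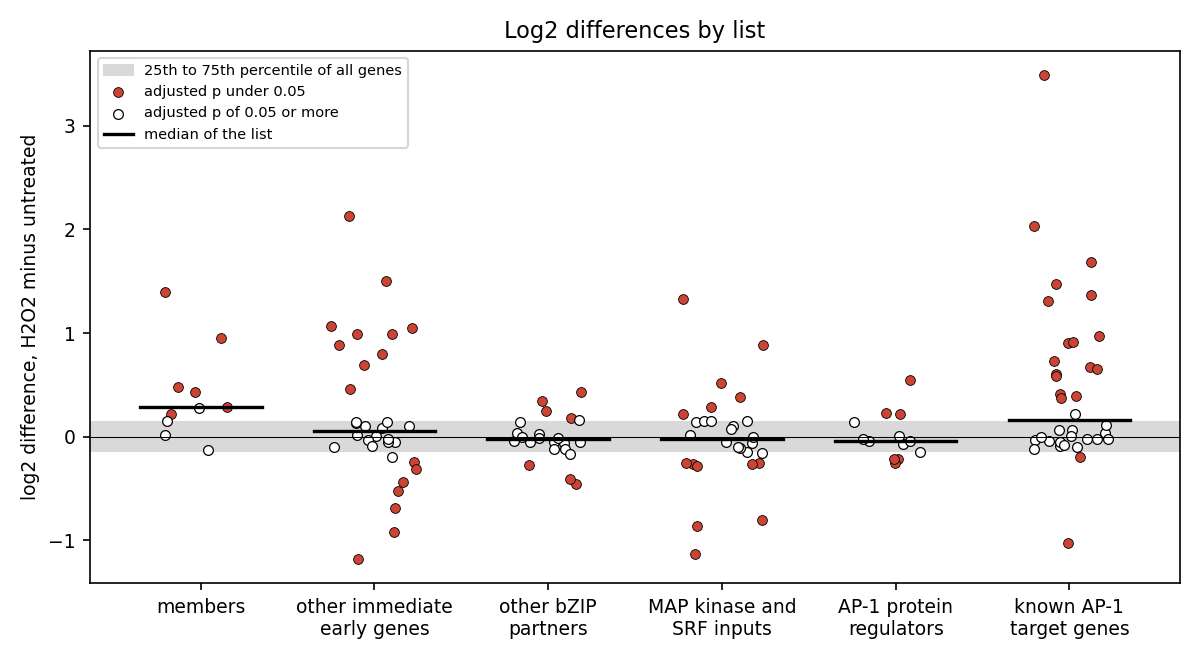
Log2 difference, H2O2 minus untreated (y axis), of each measured gene by list; filled points passed at an adjusted p under 0.05, black lines are list medians and the grey band holds the middle of all genes. The members' median is 0.29, and the other lists, targets included, spread to both sides of 0. Of the 36 target genes, 17 are filled points above 0 and 2 are filled points below it. Beside these stand 19.2% of all genes called higher and 14.8% called lower.

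Upstream of these genes, MAP kinases phosphorylate JUN, and the SRF partners of the ELK family, and thereby switch immediate early transcription on. In the list of MAP kinase and SRF inputs 6 of 28 measured were higher and 8 lower (21.4% and 28.6%, beside 19.2% and 14.8% of all genes), with a median of -0.020. With a log2 difference of at least 0.5 required, 3 were higher and 3 lower, beside 7.22% and 4.83% of all genes. ELK3, an SRF partner that can repress, rose from 8.02, 8.11, 8.09 and 7.91 to 9.28, 9.26, 9.36 and 9.55, by 1.33 ± 0.080 (limma adjusted p = 2.69e-08). MAPK13, a p38 kinase, rose by 0.88 ± 0.072, and RPS6KA1, a ribosomal S6 kinase downstream of ERK, by 0.52 ± 0.069. MAP2K6, which activates p38 kinases, fell by 1.13 ± 0.095, to levels below the array median on all 4 H2O2 arrays. RPS6KA5, the kinase MSK1 that acts on chromatin of immediate early genes, fell by 0.86 ± 0.078 but was below the array median on all 8 arrays. RPS6KA3, another ribosomal S6 kinase, fell by 0.80 ± 0.079. Chosen after their values were seen, the JUN kinase genes MAPK8 and MAPK9 gave -0.06 ± 0.086 (95% interval -0.25 to 0.12) and -0.26 ± 0.084, of which MAPK9 was called lower (limma adjusted p = 0.0288). SRF gave -0.05 ± 0.068 (95% interval -0.19 to 0.10), and ELK1 -0.11 ± 0.070. These are transcript levels, and kinase activity was not measured.

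Transcripts of proteins that stabilise, degrade or restrain AP-1 showed small differences, with a median of -0.036. Of 13 measured, 3 were called higher and 3 lower (23.1% each, beside 19.2% and 14.8% of all genes). The proteins themselves were not measured. FBXW7, a ubiquitin ligase subunit that targets phosphorylated JUN, rose by 0.55 ± 0.077, from 6.73, 6.81, 6.86 and 6.76 to 7.25, 7.37, 7.23 and 7.53 (limma adjusted p = 7.08e-05), and was the only gene of the list with a difference of 0.5 or more. MAPK8IP1, a scaffold of JUN kinases, gave 0.23 ± 0.073, and ITCH, a ubiquitin ligase for JUN and JUNB, 0.22 ± 0.066. SIRT1, a deacetylase, gave -0.25 ± 0.076, CUL4A, a ubiquitin ligase scaffold, -0.22 ± 0.069, and DET1, an adaptor of that ligase, -0.22 ± 0.080. The calls of these last 5 changed when single arrays were left out. MAPK8IP1 lost its call without untreated replicate 4 or H2O2 replicate 1 or 2, and when all probe sets were fitted (p over alternatives 0.0139 to 0.0862). ITCH lost it without untreated replicate 2 or 4 or H2O2 replicate 2 or 4 (0.0063 to 0.0675). SIRT1 lost it without untreated replicate 1 or 3 or H2O2 replicate 4 (0.0107 to 0.0725), and CUL4A without H2O2 replicate 1 (0.0102 to 0.0671). DET1 lost it without untreated replicate 1, 3 or 4 or H2O2 replicate 1, 3 or 4, and also with median centring, averaged probe sets or all probe sets fitted (0.0158 to 0.117). The list had 3 calls without untreated replicate 4, 3 without H2O2 replicate 1 and 3 without H2O2 replicate 4, in place of 6.

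Genes known as AP-1 targets in other cells were called higher in 17 of 36 measured cases and lower in 2 (47.2% and 5.56%). Over all genes these shares were 19.2% and 14.8%. The list's median was 0.17 beside -0.022 over all genes. The list was written with earlier results of these data known, so these shares do not test for an excess of targets. MMP3, the matrix protease stromelysin-1, rose from 5.86, 5.78, 5.59 and 5.77 to 9.10, 9.22, 9.20 and 9.46, or 11.3-fold. TIMP1, an inhibitor of such proteases, rose from 10.08, 10.14, 10.24 and 10.43 to 12.31, 12.18, 12.27 and 12.25, or 4.09-fold. CXCL8, the chemokine interleukin 8, rose from 7.03, 6.77, 7.01 and 7.44 to 8.62, 8.72, 8.88 and 8.77, or 3.22-fold. In all 3 genes the groups were far apart. Untreated MMP3 lay below the array median on all 4 arrays with no detection call, so the fold is approximate. VEGFA, the angiogenic factor, fell from 10.52, 10.44, 10.61 and 10.63 to 9.52, 9.57, 9.51 and 9.49. ITGB6, an integrin chain below the array median on all 8 arrays, gave -0.20 ± 0.072. Its call was lost without untreated replicate 1 or 2 or H2O2 replicate 1, 2 or 4, and with quantile normalization, all probe sets fitted or trend and robust moderation (p over alternatives 0.0284 to 0.136).

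Several further targets are named after their values were seen. PLAU, the urokinase plasminogen activator, rose by 1.47 ± 0.073 and its receptor PLAUR by 0.90 ± 0.069. Untreated PLAU lay below the array median on all 4 arrays. CCND1, the G1 cyclin D1, rose by 0.91 ± 0.082, from a mean of 10.39 to 11.31. The MMP proteases of the list beside MMP3 differed among themselves. MMP7, matrilysin, below the array median on all 8 arrays, rose by 0.67 ± 0.11 and MMP14, a membrane-bound protease, by 0.60 ± 0.069. MMP10 and MMP12 did not pass, nor did the collagenases and gelatinase that follow. MMP1 gave 0.06 ± 0.082 (95% interval -0.12 to 0.23), MMP9 -0.09 ± 0.094 and MMP13 -0.05 ± 0.090, and all 3 were below the array median on all 8 arrays. Target status was taken from general knowledge, and neither binding nor dependence on AP-1 was measured.

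The arrays were alike in scale, with medians from 6.85 to 6.93, and Pearson's r across probe sets, which are not independent, was 0.990 to 0.996 within and 0.979 to 0.985 between groups. All 10 measured hepatocyte markers lay above the array median on every array. Their summed level (log2 of the sum of linear values) was 15.54 to 15.60 untreated and 15.13 to 15.37 treated. Of these markers 7 were called lower and 1 higher (70% and 10%, beside 14.8% and 19.2% of all genes). The same shares of all genes stand beside the counts of the marker lists that follow. The summed fibroblast or stellate markers were at 10.75 to 10.90 and 11.73 to 11.93, with 2 of 7 higher and 1 lower. ACTA2, smooth muscle actin (mean 10.05 untreated and 11.55 treated), makes up most of this sum and rose by 1.5 ± 0.072. COL1A1, a collagen chain, rose by 0.41 ± 0.076, and PDGFRB, a growth factor receptor, fell by 1.15 ± 0.088. COL1A2, COL3A1, LUM and DCN were below the array median throughout. Summed leukocyte markers were at 13.06 to 13.09 and 13.06 to 13.16 (2 of 6 higher, 0 lower in limma). LYZ (mean 12.9 untreated and 12.83 treated) makes up most of this sum, CD68 rose by 0.80 ± 0.071 and CD14 by 0.27 ± 0.064, and PTPRC, CD163 and CD3E were below the median throughout. Endothelial markers were at 8.88 to 8.97 and 8.80 to 8.99 (0 of 5 higher, 1 lower), with PECAM1, VWF and KDR below the median throughout. The part of these shifts in the members' differences was not tested.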

How the data were processed

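The deposited table gives a log2 value for each probe set on each array. The scale was read from the values; the summarization and normalization used by the authors are not given in the sources used here. Of tools, limma alone is named in the submitters' processing notes, without version or purpose. Per the labels' protocols, total RNA was labelled with biotin through cRNA and sense cDNA. Of 32321 probe sets, 19158 had exactly 1 symbol in the platform annotation, which gave 18404 genes; where a gene had more than 1 probe set, that of highest mean over the 8 arrays stood for it. limma (version 3.58.1, R 4.3.3) compared H2O2 with untreated, with no block and Benjamini-Hochberg adjustment over all genes. The fit was tested on simulated data. Motifs and figures used Python 3.11.15 with matplotlib 3.10.9.

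The members and lists were chosen with earlier results of these data known. Named were all members, from each other list as many as 3 called rises and 3 called falls, taken by size, and the 3 genes nearest to JUN's profile; no member was called lower, so no fall had such a profile. Alternatives were the replicate number as a block, quantile normalization, median centring, leaving out dim genes (mean below the median probe set), averaging probe sets, fitting all probe sets, trend and robust moderation, a log2 difference of at least 0.5, exact permutation, and leaving out each array. No pair of arrays shared over 0.00619% identical values. For arrays, their number limits the precision. No scanner output or detection call was used here.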

Additional observations from a re-analysis of the deposited data

Results flagged for a closer look

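BATF stood apart in untreated replicate 1, at 6.55 against 6.70 to 6.73 in the other 3 untreated arrays, a gap that took 0.839 of the group's range, above Dixon's 95% critical value for 4 samples. Chance gives such a gap in about 1 of 20 groups, and 1 of the 84 groups examined (42 named genes in 2 groups) showed it. No member showed one.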

How the results depend on the processing

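Of 634 alternative results for the 42 named genes, 591 stayed on their side of the threshold, 38 lost and 5 gained the call, and 0 called genes reversed. The total includes the exact permutation test of each member, which keeps the main difference and sets an unadjusted p against 0.05. JUN, JUNB, JUND, FOSL1 and EGR1 passed and FOS, FOSB and IER2 missed the threshold in each alternative run in which they could be tested, except that JUNB, JUND and FOSL1 fell under the minimum log2 difference; FOSL2 and ATF3 varied as given above. Requiring a log2 difference of at least 0.5 left 2 members, 2217 genes, 0 other bZIP partners, 6 MAP kinase and SRF inputs and 1 AP-1 protein regulator called. Leaving out each array gave 5 to 6 members higher, 0 lower, 5404 to 6755 genes, 5 to 8 bZIP partners, 16 to 18 other immediate early genes, 11 to 14 inputs, 3 to 5 regulators and 18 to 19 targets; fewer samples enter these fits. Same-numbered arrays of the groups had correlations of deviations over all genes of -0.068, 0.060, -0.25 and 0.094. Arrays with different numbers were not compared in this way, so these values cannot settle whether the numbers mark paired cultures. With the replicate number as a block 7 members were higher, FOSL2 among them (0.28, adjusted p = 0.0161), and 5758 genes were called; ITCH (adjusted p = 0.0549), DET1 (adjusted p = 0.102) and ITGB6 (adjusted p = 0.0938) lost their calls, the only named genes to do so. The median of all genes was -0.022, -0.0055 after quantile normalization and -0.025 after centring. Leaving out dim genes removed FOSB and ATF3, which could not be tested there. Without detection calls, levels near the array median limit what can be said of FOS, FOSB and ATF3.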
